A study of Mus musculus with 5 samples.

Results

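A set of 10 genes of neutrophil granules and of the neutrophil surface was followed across the arrays of liver and tumor endothelial cells. Every probe whose gene name in the scanner files was 1 of the 10 was taken, which gave 12 probes of 56605, or 10 gene names of 37074. Of these, S100a8, S100a9, Retnlg, Lcn2 and Cxcr2 were grouped as genes of mature neutrophils, and Camp, Ngp, Ltf, Elane and Mpo as granule genes of neutrophil precursors. The rule uses gene names and no measured value.

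Gene expression was measured on 5 arrays, 1 for each condition, so no value carries a replicate error. The arrays held LSECs (liver sinusoidal endothelial cells) of mouse liver, TECs (tumor endothelial cells) of tumors grown from 3 hepatoma lines, and the line Hepa1-6 in culture. The lines were the human HAK-1B, the human KYN-2 and the mouse Hepa1-6. The tumors grew in the liver after the cells had been placed in its left lobe. TECs were the cells of a collagenase digest held by anti-mouse CD31 beads, a bulk preparation in which other cells can remain, and CD31 is also found on neutrophils. The labels give strain C57BL/6 for the LSECs and all 3 TECs and C57L for the cultured cells, whereas the methods name female C57BL/6 or nude BALB/c nu/nu mice, 6 weeks old. The number of mice behind an array is not given in the sources used here, and the methods' paragraph on the arrays names Huh-7 where the labels name HAK1B. The 3 TEC arrays shared a slide and the other arrays each had their own. Effects of slide and of group cannot be told apart. In such bulk samples, fewer cells of a type and less RNA per cell cannot be told apart.

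Neutrophils are short-lived white blood cells made in the bone marrow. Their granules form in a fixed order: azurophil granules, filled with Mpo and Elane, form in early precursors, and specific granules, filled with Ltf, Camp and Ngp, form in later ones. S100a8, S100a9 and Cxcr2 mark the mature cell that enters blood and tissue.

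The oligonucleotides that read 3 of the genes with the largest differences are shown first, then the dimmer probes of Lcn2 and Mpo, the only genes with more than 1 probe. They were taken from the deposited files, where all probes are 60 bases long.
S100a8: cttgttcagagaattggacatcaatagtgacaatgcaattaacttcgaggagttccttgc
Ngp: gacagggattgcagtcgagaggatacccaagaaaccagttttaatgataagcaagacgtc
Ltf: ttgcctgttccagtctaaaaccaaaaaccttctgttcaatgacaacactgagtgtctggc
Lcn2, dimmer probe: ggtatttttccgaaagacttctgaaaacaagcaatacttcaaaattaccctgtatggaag
Mpo, dimmer probe: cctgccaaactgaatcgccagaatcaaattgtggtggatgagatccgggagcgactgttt
In the mm9 coordinates of the array design, the S100a8 probe lay at chr3:90473778-90473837 on the plus strand and the S100a9 probe at chr3:90496573-90496632 on the minus strand. The Ltf probe lay at chr9:110942873-110942932 on the plus strand. The Ngp probe ran from chr9:110324266-110324814 on the plus strand, a span of 549 bases that is longer than the probe and so crosses an exon junction. The brighter Mpo probe also crossed a junction, at chr11:87617102-87617877. Across the 12 probes the GC content lay between 35.0% and 55.0%.

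The 250 bases upstream of the annotated start are shown for 2 specific granule genes and 2 azurophil granule genes, a choice made with the matches known, from RefSeq on GRCm38.p6. Capitals mark matches on either strand to TTNNGNAA, the letters of a C/EBP site, or to GAGGAA, those of a PU.1 site; both are families of transcription factors of myeloid cells.
Ngp (chr9:110419558-110419807, plus strand): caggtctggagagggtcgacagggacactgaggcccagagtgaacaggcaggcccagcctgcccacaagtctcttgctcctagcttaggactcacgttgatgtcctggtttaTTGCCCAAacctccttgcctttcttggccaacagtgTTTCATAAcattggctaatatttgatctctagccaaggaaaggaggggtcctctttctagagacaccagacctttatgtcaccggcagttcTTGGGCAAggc
Ltf (chr9:111019042-111019291, plus strand): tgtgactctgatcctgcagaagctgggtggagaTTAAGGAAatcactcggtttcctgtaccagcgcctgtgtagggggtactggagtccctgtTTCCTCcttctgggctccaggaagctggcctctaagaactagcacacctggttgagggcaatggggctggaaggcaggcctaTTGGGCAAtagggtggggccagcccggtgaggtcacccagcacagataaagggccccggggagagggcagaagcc
Elane (chr10:79886062-79886311, plus strand): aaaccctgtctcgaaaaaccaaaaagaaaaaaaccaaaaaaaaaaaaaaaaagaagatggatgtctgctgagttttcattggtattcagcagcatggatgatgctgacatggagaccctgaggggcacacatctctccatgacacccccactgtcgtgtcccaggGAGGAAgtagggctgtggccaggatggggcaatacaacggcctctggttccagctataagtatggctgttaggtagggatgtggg
Mpo (chr11:87793534-87793783, plus strand): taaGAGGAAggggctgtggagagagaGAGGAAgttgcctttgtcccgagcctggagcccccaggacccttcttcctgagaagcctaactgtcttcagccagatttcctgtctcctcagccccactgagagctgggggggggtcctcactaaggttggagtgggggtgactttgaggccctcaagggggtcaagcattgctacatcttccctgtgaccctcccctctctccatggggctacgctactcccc
The C/EBP letters occurred 3 times upstream of Ngp and 2 times upstream of Ltf, and the Elane and Mpo windows held none. The window of Camp, also a specific granule gene, held none either, so the matches did not follow the granule type. Of the 10 members, 6 had a match, beside 36.8% of 32851 promoters of the same length. The PU.1 letters occurred in 6 of 10 members, Elane and Mpo among them, beside 23.3% of promoters. A match describes letters in a window and is not evidence of binding.

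Levels are given as log2 of the background-subtracted signal after quantile normalization over the 5 arrays, and a probe counts as measured where the scanner software flagged it well above background. S100a8, which encodes 1 chain of the calcium-binding protein calprotectin, stood at 7.82 in LSEC, 14.86 in HAK-1B TEC, 12.19 in Hepa1-6 TEC, 9.44 in KYN-2 TEC and 2.19 in cultured Hepa1-6 cells, where it was not well above background. Before normalization its signal was 253, 30530, 4887, 417 and 12.2 on the same arrays. The HAK-1B TEC array was the highest and all 3 TECs were above LSEC. S100a9, the other chain of calprotectin, followed the same order, at 9.46 in LSEC, 16.46 in HAK-1B, 14.05 in Hepa1-6 and 10.61 in KYN-2 TEC.

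Retnlg, a small secreted protein of the resistin family, stood at 9.96 in LSEC, 14.07 in HAK-1B, 11.71 in Hepa1-6 and 8.48 in KYN-2 TEC. The KYN-2 TEC array was therefore below LSEC, unlike the other TECs. Lcn2, which binds bacterial iron carriers and is also made by other cells in inflammation, was 8.01, 11.98, 11.27 and 7.96 on the same arrays with its brighter probe. Its dimmer probe, not well above background in LSEC, was 4.72, 9.55, 8.25 and 5.13, so that the probes disagreed on the sign of the small difference between KYN-2 TEC and LSEC. Cxcr2, the receptor for neutrophil-attracting chemokines, was not well above background in LSEC (4.45) and stood at 9.01 in HAK-1B, 7.69 in Hepa1-6 and 4.75 in KYN-2 TEC.

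Among the granule genes, Camp, the precursor of the antimicrobial peptide cathelicidin, stood at 6.12 in LSEC, 11.22 in HAK-1B, 9.44 in Hepa1-6 and 6.74 in KYN-2 TEC. Ngp, a granule protein related to the cystatins and cathelicidins, was well above background on only 2 arrays, at 10.06 in HAK-1B TEC and 8.44 in Hepa1-6 TEC, beside 3.08 in LSEC and 4.84 in KYN-2 TEC. Ltf, the iron-binding protein lactoferrin, was not well above background in LSEC (4.002) and stood at 10.91, 7.81 and 5.84 in the TECs, listed in the same order. These genes had the same order over the TECs as the mature genes.

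Elane, neutrophil elastase, and Mpo, myeloperoxidase, had the opposite order. Elane stood at 9.07 in LSEC, 9.17 in HAK-1B, 9.40 in Hepa1-6 and 10.49 in KYN-2 TEC. Mpo stood at 10.96, 11.17, 11.82 and 12.03 on the same arrays with its brighter probe. Its dimmer probe gave 7.94 in LSEC, 8.34 in both HAK-1B and Hepa1-6 TEC and 9.12 in KYN-2 TEC. After normalization KYN-2 TEC was thus the highest array for Elane and Mpo and the lowest TEC for the other 8 members. Before it, the brighter Mpo probe had 2379 in HAK-1B, 3801 in Hepa1-6 and 2516 in KYN-2 TEC. The dimmer Mpo probe had 334, 393 and 333, so that Hepa1-6 TEC was highest with either probe. Elane kept its order, at 594, 778 and 858.

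In cultured Hepa1-6 cells only Elane was well above background, at 8.54, close to its level of 9.07 in LSEC. The Mpo probe had 3.95 in these cells, not well above background. Whether the Elane probe read other RNA there was not tested.

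**Figure D1:**
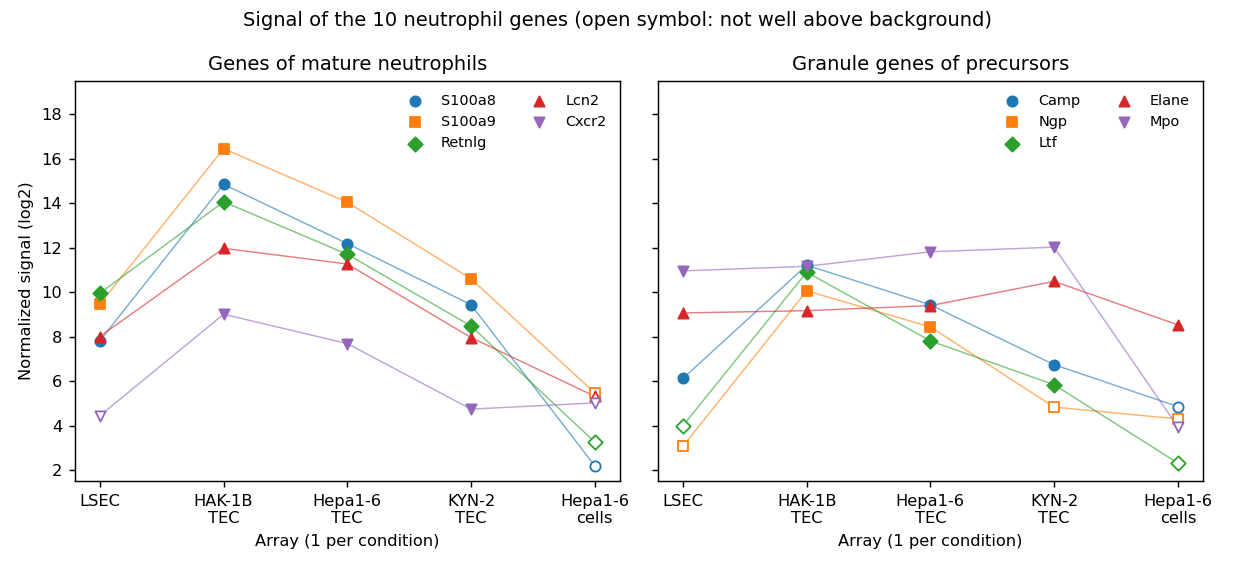
Normalized signal (log2) of the 10 genes on the 5 arrays, with 1 array per condition, mature genes on the left and granule genes on the right. Filled symbols are well above background, open symbols are not, and lines only join the values of 1 gene (brightest probe). All 5 mature genes and Camp, Ngp and Ltf peaked in HAK-1B TEC, whereas Elane (10.49) and Mpo (12.03) were highest in KYN-2 TEC.

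Each TEC array was then compared with the LSEC array, which asks how endothelial cells of a tumor differ from those of the liver. The 3 comparisons share the LSEC array. As in the methods, a gene was called higher when its ratio reached 1.5 and its Z-score 2, the latter being taken over all probes kept, so that the rule is one of size and not a test. In HAK-1B TEC, 8 of the 10 members were called higher, where 3.11% of all genes kept were. In Hepa1-6 TEC, 4 were called higher (S100a8, S100a9, Ngp and Ltf), beside 4.55% of all genes, and in KYN-2 TEC none of the 9 members kept was, beside 3.64%. A Z-score of 2 needed a ratio of 7.25 for HAK-1B, 11.4 for Hepa1-6 and 6.79 for KYN-2 TEC. With the ratio alone, 9 members would be called for Hepa1-6, beside 35.2% of all genes, and 6 for KYN-2 TEC, beside 26.0%. With scaling to the 75th percentile, 2 members were called in Hepa1-6 TEC, beside 3.89%. No member was called higher in all 3 TECs, as 0.418% of all genes were.

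In HAK-1B TEC the fold difference from LSEC was 131 for S100a8, 128 for S100a9, 34.2 for Camp, 17.3 for Retnlg and 15.7 for Lcn2. For genes not well above background in LSEC the difference is a bound, and it was at least 74.9-fold for Ltf, at least 41.8-fold for Ngp and at least 20.2-fold for Cxcr2. These bounds hold for the signal as the scanner software corrected it: with normexp background correction and an offset of 50 the log2 differences were 4.68 for Ltf, 3.82 for Ngp and 2.82 for Cxcr2, which are smaller folds than the bounds. Elane and Mpo differed by 1.07-fold and 1.15-fold. The array thus held large differences for the calprotectin genes, Camp, Ngp and Ltf beside small ones for Elane and Mpo. Other azurophil granule genes differed more, with a median log2 difference of 1.70 over the 6 listed below.

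In Hepa1-6 TEC the folds over LSEC were 24.0 for S100a9, 20.7 for S100a8, 9.93 for Camp, 9.58 for Lcn2 and 3.37 for Retnlg. The bounds were at least 13.6-fold for Ngp, 8.78-fold for Ltf and 8.08-fold for Cxcr2, and with normexp the log2 differences were 2.41, 1.89 and 1.73. Elane (1.26-fold) and Mpo (1.81-fold) were again the smallest. The dimmer Lcn2 probe, at least 11.5-fold higher, passed the rule of size here while the brighter probe did not.

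In KYN-2 TEC the folds were 3.07 for S100a8, 2.21 for S100a9, 2.67 for Elane, 2.09 for Mpo and 1.54 for Camp. Ltf was at least 2.24-fold higher, Ngp was not well above background on either array, and Cxcr2 and Lcn2 were close to LSEC. Retnlg was 2.78-fold higher in LSEC than in KYN-2 TEC. In cultured Hepa1-6 cells 2 members, Retnlg and Mpo, were called lower than in LSEC, beside 4.81% of all genes.

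**Figure D2:**
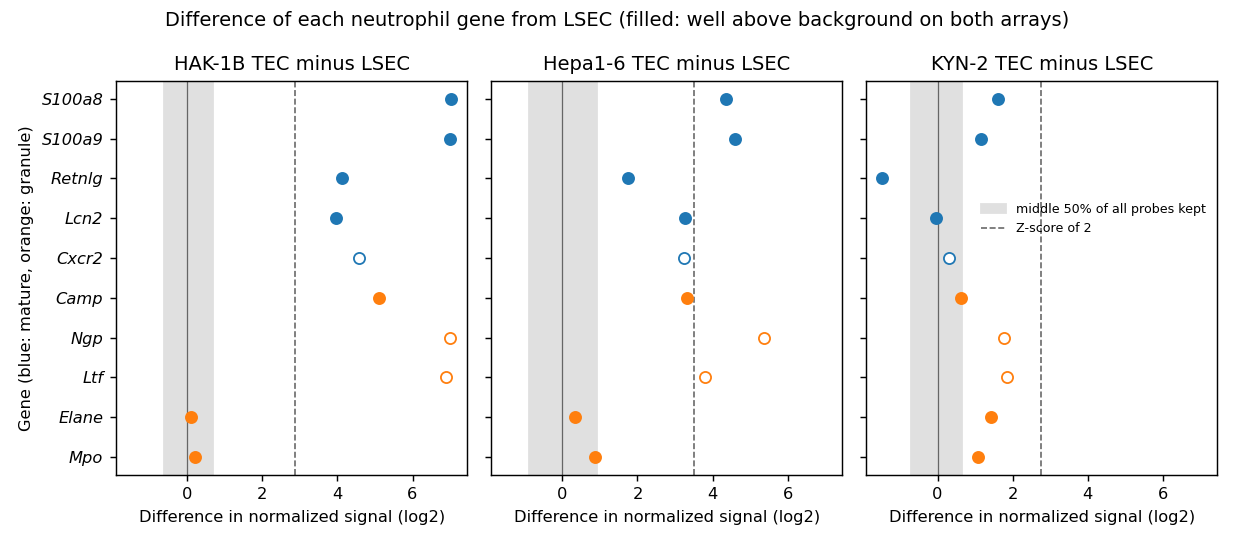
Difference of each gene from LSEC in normalized signal (log2) on the 3 TEC arrays, 1 panel per tumor line, blue for mature genes and orange for granule genes. Filled points are well above background on both arrays, open points are normalized values with only a bound, the grey band runs from the lower to the upper quartile of all probes kept and the dashed line marks a Z-score of 2. In the HAK-1B panel 8 genes lie right of the line, and Elane (0.10) and Mpo (0.20) lie near 0.

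The TEC arrays, which lie on the same slide, were also compared with each other, a comparison added after the values were seen. Against KYN-2 TEC, 8 members were called higher in HAK-1B TEC, beside 2.84% of all genes. The fold was 57.8 for S100a9, 48.1 for Retnlg, 42.7 for S100a8, 33.4 for Ltf, 22.2 for Camp, 19.3 for Cxcr2 and 16.2 for Lcn2, and at least 37.5 for Ngp. These lie closer to each other than the differences of the same genes from LSEC. Elane and Mpo ran the other way in normalized signal, 2.49-fold and 1.82-fold higher in KYN-2 TEC. Against KYN-2 TEC, 4 members were called higher in Hepa1-6 TEC (S100a9, Retnlg, Lcn2 and Ngp), beside 4.67% of all genes. None of these was called with scaling to the 75th percentile, beside 4.47% of all genes, and 8 were by the ratio alone, beside 30.8%. Against Hepa1-6 TEC only Ltf was called higher in HAK-1B TEC, beside 1.54%, with 0 after normalization by pair, beside 1.57%, and 8 by the ratio alone, beside 28.2%.

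The order HAK-1B above Hepa1-6 above KYN-2 TEC was found for 8 of 10 members and for 9.4% of all genes. Of these 8, Ngp was not well above background in KYN-2 TEC. Elane and Mpo had the reverse order, found for 9.9% of all genes, though Mpo did not have it before normalization. The order of the 10 members was the same after scaling to the 75th percentile, after normexp background correction and in the deposited table.

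Mature and precursor genes, taken as 5 against 5, were compared by the median log2 difference from LSEC. With the normalized values of every member it was 4.57 for mature genes and 5.09 for granule genes in HAK-1B TEC, 3.26 and 3.31 for Hepa1-6, and 0.30 and 1.42 for KYN-2, where all genes kept had medians between -0.05 and 0.09. With members measured on 1 array only at their bound, and Ngp left out in KYN-2 TEC, the medians were 4.33 and 5.09, 3.26 and 3.13, and 0.07 and 1.12. The sign of the mature minus granule difference in HAK-1B TEC (-0.53) and Hepa1-6 TEC (-0.05) turned with normexp (0.19 and 1.01), and over members well above background on both arrays, which leaves out Cxcr2, Ngp and Ltf, it was 5.35 and 2.96.

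Among the granule genes, Camp of specific granules, measured on all 4 endothelial arrays, had log2 differences of 5.09, 3.31 and 0.62 from LSEC in HAK-1B, Hepa1-6 and KYN-2 TEC. Elane and Mpo, of azurophil granules and also measured on all 4, had medians of 0.15, 0.60 and 1.24. Ngp and Ltf, the other specific granule genes of this group, have only bounds against LSEC. With these the median of Camp, Ngp and Ltf was 5.39, 3.31 and 0.89, over Camp and Ltf alone in KYN-2 TEC. Lcn2, grouped here with the mature genes, is also in the list of secondary and tertiary granule genes used below. Its log2 differences were 3.97, 3.26 and -0.05. This split of the granule genes was made after the values were seen.

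The longer lists of granule genes, written from textbook knowledge with earlier results of these data known, were then read without the 10 members. In all list medians a gene measured on 1 array only is at its bound, and a gene with no fold is left out. The 6 genes of primary granules were measured on all 4 endothelial arrays and had a median log2 difference from LSEC of 1.70, 1.51 and 1.22 in the TECs of HAK-1B, Hepa1-6 and KYN-2. Of 13 genes of secondary and tertiary granules, 7 were measured on both arrays in each comparison, and 2, 2 and 5 were left out. Their median was 3.29, 4.48 and 2.80, which is not the order of S100a8. With the normalized values of all 13 genes it was 4.19, 2.64 and 0.64, which is that order. The order of this list thus depends on how genes not well above background are handled. With the members included, 12 of 17 secondary and tertiary granule genes were called higher for HAK-1B, 8 for Hepa1-6 and 4 for KYN-2 TEC. Of 8 primary granule genes 1, 0 and 0 were. The shares of all genes called higher were 3.11%, 4.55% and 3.64%, which also stand beside the list counts that follow. Prtn3, proteinase 3 of azurophil granules, had log2 differences of 2.72, 2.71 and 1.67. Of the 17 secondary and tertiary granule genes, 4 were well above background in cultured Hepa1-6 cells, with Chil3 at 12.17 and Pglyrp1 at 9.65. The part of tumor cell RNA in the Hepa1-6 TEC counts was not tested.

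Not all neutrophil genes had the order of S100a8. In normalized values 11 of 27 other mature neutrophil genes had it, beside 9.4% of all genes. Of 27 other mature neutrophil genes measured, 17 were called higher in HAK-1B, 11 in Hepa1-6 and 6 in KYN-2 TEC. The 5 called in all 3 TECs were Il1r2, Mmp8, Mmp9, Clec4e and Slc7a11. Well above background in cultured Hepa1-6 cells were 8 of the 27, with Ly6g at 9.74 and Slc7a11 at 9.61. The list's median was 3.10, 2.56 and 1.51, with 18 genes measured on both arrays. Mmp8, the neutrophil collagenase, was nearly level over the TECs, with log2 differences of 4.75, 4.77 and 4.73. Il1r2, a decoy receptor for interleukin-1, had 6.91, 6.32 and 4.48. Csf3r, the receptor for the growth factor G-CSF, was bright on every array, at 16.45 in LSEC and 15.22 in cultured Hepa1-6 cells. Whether its probe read other RNA was not tested, so its order over the TECs is not read as a result.

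Lists of genes that act on neutrophils had smaller medians than the other mature neutrophil genes. Of all genes kept 3.11%, 4.55% and 3.64% were called higher in the TECs of HAK-1B, Hepa1-6 and KYN-2. Small counts in these lists are therefore not read as a result. Of 18 surface receptors, Cxcr2 among them, the same TECs had 3, 2 and 1 called higher, with medians of 1.54, 0.76 and 0.54. Of 14 chemoattractants and growth factors, 3, 2 and 2 were called higher, with medians of 1.08, 0.28 and 1.18. Of 10 transcription factors of granulocytes, 2, 1 and 0 were called higher. Cebpe, a factor of specific granule formation, had log2 differences of 4.25, 4.67 and 2.46, so that Hepa1-6 TEC was above HAK-1B TEC.

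The genes whose pattern over the 5 arrays was most like that of S100a8, by the root mean square difference of centred log2 values over 18794 genes, were S100a9 (0.72), Ccl8 (1.00), Adgrg5 (1.05), Ccr2 (1.07) and Ccl12 (1.103), beside a median of 4.36 over all genes. Most like Ngp were Mcemp1 (0.83), Camp (0.88), Stfa3 (0.88), Cxcr2 (0.90) and BC100530 (0.96), with a median of 2.80. Both patterns rest in part on arrays where the gene was not well above background: the cultured cells for S100a8, and these, LSEC and KYN-2 TEC for Ngp.

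Markers of other cells moved over the same arrays, and their part in the results was not tested. All 12 pan-endothelial markers were well above background on the LSEC and TEC arrays. Their summed signal was 491826 in LSEC and 72347, 72039 and 139496 in the TECs of HAK-1B, Hepa1-6 and KYN-2, the highest of the TECs in KYN-2 TEC. Of 9 monocyte markers, all well above background on the TEC arrays, 4, 4 and 3 were called higher. Their summed signal was 58540 in LSEC and 312603, 211895 and 165753 in the TECs. In cultured Hepa1-6 cells this sum was 175925, with 7 of the markers well above background and Fn1 (16.5) the brightest. The sum is thus not particular to monocytes. The 14 macrophage and Kupffer cell markers summed to 834360 in LSEC and 636187, 350082 and 442586 in the TECs. Of 10 eosinophil, basophil and mast cell markers 3, 1 and 0 were called higher and 0, 0 and 2 lower. Below LSEC in all 3 TECs were 6 of them, a count with no share over all genes at hand. The summed signal of the 10 was 6809 in LSEC and 10120, 9496 and 2256 in the TECs, with median log2 differences of -0.28, -0.82 and -1.48. Epx, the eosinophil peroxidase, was above LSEC, with differences of 3.52, 3.59 and 0.24. Of 8 erythroid markers 7, 0 and 0 were called lower, where 799 of 20298, 537 of 26322 and 569 of 19819 genes kept were. The erythroid markers summed to 568280 in LSEC and 12716, 91514 and 289486 in the TECs, the reverse of the order of S100a8.

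**Figure D3:**
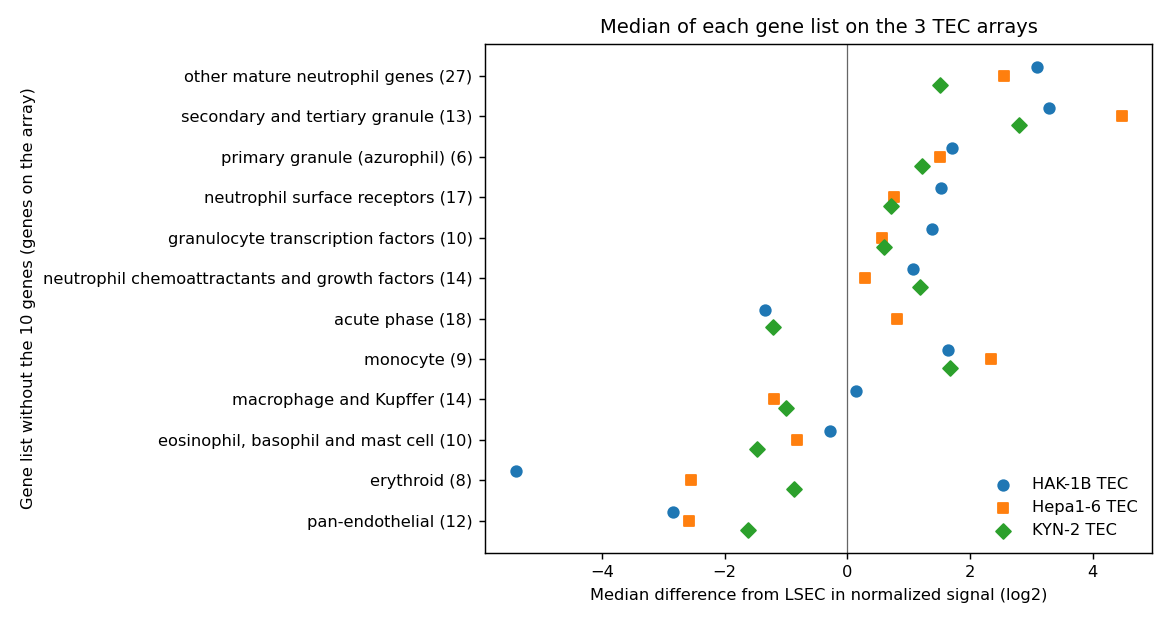
Median difference from LSEC in normalized signal (log2) of each gene list on the 3 TEC arrays, with the 10 genes left out, genes measured on 1 array only at their bound, and the number of genes on the array in brackets. The medians of the other mature neutrophil genes run from 3.10 in HAK-1B TEC to 1.51 in KYN-2 TEC, and those of the primary granule genes lie between 1.70 and 1.22.

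The 3 TECs were also tested together against LSEC with limma, where the lone LSEC array was assumed to vary like the TECs. No member passed an adjusted p of 0.05 with Benjamini-Hochberg adjustment, and 0.0% of 26771 genes did. At an unadjusted p under 0.05 there were 0 members and 9.13% of all genes. Of the 7 members well above background on all 4 arrays, S100a8 had the smallest p, with a difference of 4.34 (SE 2.18) and a limma adjusted p of 0.692. The SD over the 3 TECs was 2.71 for S100a8 and 0.70 for Elane on the log2 scale. Fits that left out 1 TEC array set the other TECs against the lone LSEC array, with 1 residual degree of freedom. Leaving out HAK-1B TEC or Hepa1-6 TEC gave no member an unadjusted limma p under 0.05. The count without KYN-2 TEC, given next, depends on leaving out the array where most members were lowest. It is therefore not read as a result. Without the KYN-2 TEC array, where 8 members were lowest among the TECs, 7 members had an unadjusted limma p under 0.05, beside 5.36% of all genes, and the smallest adjusted p of a member was 0.982.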

How the data were processed

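RNA of LSECs, of TECs from 3 tumor lines and of cultured Hepa1-6 cells was labelled with Cy3 and hybridized to 60-mer mouse arrays, 1 per condition. The authors deposited linear spot intensity values, background-subtracted by Agilent Feature Extraction (9.5.1.1 in the submitters' processing notes, 10.7.1.1 in the file headers), with flags, and a table of normalized intensities. Per the methods, signals of the samples being compared were put on the log2 scale and quantile normalized. How many arrays were normalized together for the table is not given in the sources used here. The labels name TRIzol and a column kit for RNA, the methods another kit.

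Control spots were removed, repeated spots averaged, and the log2 values of all 5 arrays quantile normalized together. Probes flagged present on 1 or both arrays of a comparison were kept, 4460 lincRNA probes were left out, and a gene took its brightest probe. Higher meant a ratio of 1.5 with a Z-score of 2, and lower a ratio of 0.66 with a Z-score of -2. A fold against an array not well above background used the lowest signal well above background there. Probes well above background made up 44.6% to 78.1% of an array. The highest share was that of Hepa1-6 TEC, beside 54.1% to 57.6% on the other endothelial arrays. Its lowest log2 value well above background was 2.85, beside 4.28 to 4.68 on those, so that fewer probes counted as not measured there. No probe was saturated, and repeated spots had a median coefficient of variation of 2.70% to 3.12%, which covers the array only. The small number of arrays limits the precision.

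limma 3.58.1 in R 4.3.3 had 2 residual degrees of freedom. Other steps used Python 3.11.15, numpy 2.4.6 and pandas 2.3.3, and scripts were tested on simulated data. The rule of size calls the tails of any spread, changed or not, so counts of members are to be read against the share of all genes called.

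The members and the 17 other gene lists were chosen with earlier results of these data known. Named genes were the members, up to 3 of each list with the largest mean difference, genes called in all TECs, and the 5 most like S100a8 and Ngp. Csf3r was chosen after its values were seen. T and NK cell, B and plasma cell, hepatocyte, fibroblast and LSEC lists gave median log2 differences of normalized values, in the order HAK-1B, Hepa1-6 and KYN-2 TEC, of 0.05, 0.44 and 0.59, of 0.45, -1.20 and 0.08, of -4.80, -0.36 and -3.13, of 0.64, 2.26 and 1.26, and of -3.57, -2.70 and -2.69. Alternatives were other scalings, background correction, probe rules and filters, and each TEC left out.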

Additional observations from a re-analysis of the deposited data

Results flagged for a closer look

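Retnlg and Lcn2 were picked out because tumor lines lay on opposite sides of LSEC. The log2 difference of Retnlg from LSEC was 4.11 for HAK-1B, 1.75 for Hepa1-6 and -1.47 for KYN-2 TEC. That of Lcn2 was 3.97, 3.26 and -0.048 on the same arrays. The differences between lines were not tested, with 1 array per line.

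Medians of normalized values over 3 gene lists also changed sign between lines, again untested. The acute phase list, which holds Lcn2, had -1.17 (HAK-1B), 0.97 (Hepa1-6) and -2.37 (KYN-2). The macrophage and Kupffer cell list had 0.14, -1.20 and -0.998, and the B and plasma cell list 0.45, -1.20 and 0.076.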

How the results depend on the processing

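The 8 members called higher in HAK-1B TEC, against LSEC or KYN-2 TEC, stayed at 8 under each alternative run. Without the Z-score this stood beside 26.6% of all genes against LSEC and 19.2% against KYN-2 TEC. With the other scalings and normexp the share lay between 2.48% and 3.31%. In Hepa1-6 TEC against LSEC, 4 became 2 with 75th percentile scaling, which moved the median of all genes from 0.09 to 0.43, and 9 without the Z-score. The count was 3 with normalization by pair (4.39% of all genes) and 5 with normexp (3.77%). Without the Z-score KYN-2 TEC had 6 in place of 0. For lower calls in cultured cells, 2 became 1 with normexp (4.87% of all genes) and 6 without the Z-score (37.7%). HAK-1B against Hepa1-6 TEC had 1, then 2 with 75th percentile scaling (0.883% of all genes), 0 with normalization by pair, 5 with normexp (1.86%) and 8 without the Z-score. Hepa1-6 against KYN-2 TEC had 4, then 0 with 75th percentile scaling, 6 with normexp (3.53%) and 8 without the Z-score. The pairs of TECs were added after the data were seen. With normexp all genes kept in Hepa1-6 TEC against LSEC split into 993 higher and 760 lower, in place of 1197 and 537.

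The median of the mature genes minus that of the granule genes was -0.53 (HAK-1B), -0.05 (Hepa1-6) and -1.12 (KYN-2). It was 0.19, 1.01 and -0.47 with normexp, 1.25, 0.52 and -0.52 with Lcn2 as a granule gene, and 5.35, 2.96 and -0.52 over members well above background on both arrays. The sign therefore depends on these choices in HAK-1B and Hepa1-6 TEC; the cause was not tested. Of 126 values of single members, 124 moved by less than the SD over the 3 TECs, a wide yardstick of up to 2.94 for a member. The other 2 were Ngp with normexp, which went from 6.99 to 3.82 in HAK-1B TEC and from 5.37 to 2.41 in Hepa1-6 TEC. Ltf (6.90 to 4.68 and 3.81 to 1.89) and Cxcr2 (4.57 to 2.82 and 3.25 to 1.73) were also smaller with it. Medians with bounds and shares under other rules were added after the data were seen. Lcn2 in KYN-2 TEC went from -0.05 to 0.18 with the mean of its probes.

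With limma, leaving out 1 TEC gave 0 to 0 members past the adjusted threshold. No probe passed in these fits with 1 residual degree of freedom, so that says nothing of how the result depends on an array. A fit with slide as a block was not possible, since LSEC and TECs shared none. No paired analysis was possible because no group had a replicate.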
